A study of Homo sapiens with 12 samples.

Results

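The genes described here were 37 genes of glycolysis and of the response to low oxygen, measured by single-cell RNA sequencing (scRNA-seq) in 3 lines of squamous cell carcinoma of the head and neck (HNSCC). They were chosen by name, as a list of glucose and lactate transporters, glycolytic enzymes and hypoxia-induced genes. All 37 were found once in each of the 3 count matrices, among 33514 gene symbols, and all 37 passed the filter on low counts that left 17897 genes for testing. Cultures of SCC1, SCC6 and SCC25 received cetuximab, a therapeutic antibody against EGFR (the receptor of epidermal growth factor), daily at 100 nM for 5 days, and controls received phosphate-buffered saline (PBS) only. Each of the 6 groups had 2 replicates, which made 12 samples. The labels give no genetic change to any group. Whether the replicates are separate cultures is not clear from the labels, so all SD, SE and p-values cover the spread between these samples, which may be technical.

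Glycolysis splits glucose into pyruvate, and in cells short of oxygen lactate dehydrogenase turns that pyruvate into lactate, which monocarboxylate transporters carry out of the cell. When oxygen falls, the prolyl hydroxylases that mark hypoxia-inducible factor (HIF) for destruction stop working, and HIF binds a short core motif, ACGTG or GCGTG, near its target genes. These targets include glucose transporters, most glycolytic enzymes, carbonic anhydrases of the cell surface, the vessel growth factor VEGFA and the mitophagy receptor BNIP3. Squamous carcinomas of the head and neck are known for hypoxic regions in which such genes are high.

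Promoter sequence was taken from RefSeq (GRCh38.p14), which held a start site for 32 of the 37 genes. SLC2A3, SLC16A1, VEGFA, NDRG1 and BNIP3L had none in the table used. Of the 21 genes with a single start site, 15 had ACGTG or GCGTG on either strand within the 250 bases before the start, which is 71.4%, beside 42.2% of the 22114 windows of all genes with a single start site. For ACGTG alone the share was 47.6% beside 18.4%. ACGTG on both strands overlaps itself in the palindrome CACGTG, which was counted as 2 matches. The 6 windows below are shown because CA9 and CA12 were the genes called under cetuximab without a replicate block, and because EGLN3, P4HA1, BNIP3 and ANKRD37 were lowest in untreated SCC6 and below SCC1. ALDOC, with 5 matches in its single window, was low in the same way and is not shown. Capitals mark matches to either motif on either strand, and each sequence runs 5′ to 3′ on the strand of the gene and ends at the base before the start.

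CA9 (chr9:35673678-35673927, plus strand): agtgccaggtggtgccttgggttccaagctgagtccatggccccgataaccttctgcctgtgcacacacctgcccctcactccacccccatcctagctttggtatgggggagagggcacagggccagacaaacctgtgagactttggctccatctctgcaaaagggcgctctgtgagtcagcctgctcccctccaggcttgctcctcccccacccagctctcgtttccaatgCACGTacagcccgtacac
CA12 (chr15:63381847-63382096, minus strand): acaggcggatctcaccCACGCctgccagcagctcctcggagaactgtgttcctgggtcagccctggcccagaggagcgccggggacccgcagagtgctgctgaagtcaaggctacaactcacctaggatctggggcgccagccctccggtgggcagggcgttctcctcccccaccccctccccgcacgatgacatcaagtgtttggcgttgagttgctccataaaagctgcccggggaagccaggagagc
EGLN3 (chr14:33951075-33951324, minus strand): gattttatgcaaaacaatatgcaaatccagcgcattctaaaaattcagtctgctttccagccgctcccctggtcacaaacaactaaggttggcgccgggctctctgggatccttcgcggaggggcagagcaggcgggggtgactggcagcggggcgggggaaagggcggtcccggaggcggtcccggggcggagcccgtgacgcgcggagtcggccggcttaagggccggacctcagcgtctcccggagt
P4HA1 (chr10:73096867-73097116, minus strand): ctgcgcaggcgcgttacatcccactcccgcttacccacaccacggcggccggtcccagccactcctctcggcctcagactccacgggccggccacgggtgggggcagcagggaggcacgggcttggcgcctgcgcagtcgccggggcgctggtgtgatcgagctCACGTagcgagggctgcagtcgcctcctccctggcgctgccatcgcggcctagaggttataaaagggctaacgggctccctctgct
BNIP3 (chr10:131981924-131982173, minus strand): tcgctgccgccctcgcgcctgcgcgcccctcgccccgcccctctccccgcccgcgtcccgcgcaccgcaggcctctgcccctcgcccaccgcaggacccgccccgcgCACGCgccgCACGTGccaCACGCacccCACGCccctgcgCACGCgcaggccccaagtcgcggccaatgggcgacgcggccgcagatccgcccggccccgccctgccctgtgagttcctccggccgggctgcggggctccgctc
ANKRD37 (chr4:185396591-185396840, plus strand): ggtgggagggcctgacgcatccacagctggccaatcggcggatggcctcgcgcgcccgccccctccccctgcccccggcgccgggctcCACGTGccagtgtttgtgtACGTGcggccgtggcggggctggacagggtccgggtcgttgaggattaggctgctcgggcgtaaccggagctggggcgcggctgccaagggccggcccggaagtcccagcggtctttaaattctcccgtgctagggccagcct

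The BNIP3 window held 6 matches and the ANKRD37 window 3, 2 of them in each gene from 1 CACGTG. CA9, P4HA1 and CA12 had 1 match each. The CA9 match began 18 bases before the start, the P4HA1 match 86 and the CA12 match 234 bases before it. The EGLN3 window had no match, which says only that these letters are not in these 250 bases.

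The 12 samples had between 57057402 and 112170073 unique molecular identifiers (UMIs) from 23914 cells, with a median of 24079 to 54864 UMIs per cell. Levels below are CPM, UMIs summed per sample and scaled to a common library size with TMM factors. Chromium 3′ libraries count transcript ends, so levels are not divided by gene length and are compared between samples and not between genes. The defining leukocyte genes PTPRC and CD3E stayed at or below 0.0691 CPM in every sample. CD68 was the exception among the leukocyte markers and reached 205 CPM in SCC25. The squamous keratins KRT5 and KRT14 were at 324 CPM or more in SCC1 and SCC25 but at most 4.47 and 2.52 CPM in SCC6, while KRT17 was abundant in all lines. Together the 37 genes took 0.767% to 2.04% of all UMIs. The 17 glycolytic enzymes, lactate dehydrogenases included, took 0.714% to 1.90%, and GAPDH alone 0.425% to 0.808%. The plot of levels in the 12 samples shows columns of 1 line that resemble each other for many genes.

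The untreated lines differed in which hypoxia-induced genes they expressed. SCC6 was low in EGLN3, BNIP3, P4HA1, ANKRD37 and NDRG1, SCC25 was high in CA12, NDRG1 and ALDOC, and SCC1 was high in CA9, SLC2A1 and EGLN3. Between SCC6 and SCC1, 14 of the 37 genes differed at FDR 0.05, which is 37.8%, beside 40.2% of all genes tested. Of these, 3 were higher in SCC6 (background 21.5%) and 11 lower (background 18.6%). Between SCC25 and SCC1, 10 genes differed (background 40.8%), 6 higher in SCC25 (background 23.4%) and 4 lower (background 17.3%). Between SCC25 and SCC6, 13 differed (background 40.9%), 10 higher in SCC25 (background 22.2%) and 3 lower (background 18.7%). The shares called among the 37 genes, from 27.0% to 37.8%, were thus near or below those of all genes. With the replicate number as a block, 22, 17 and 24 of the 37 genes were called in the same order, beside 53.8%, 54.7% and 54.4% of all genes. The median difference was −0.51 (log2) over the 37 genes and 0.00 over all genes for SCC6 minus SCC1, and 0.40 and 0.00 for SCC25 minus SCC6. In all, 19 genes differed in at least 1 of the 3 comparisons and 18 in none. The share of all genes called in at least 1 of the 3 was not calculated, so these counts have no background.

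**Figure D1:**
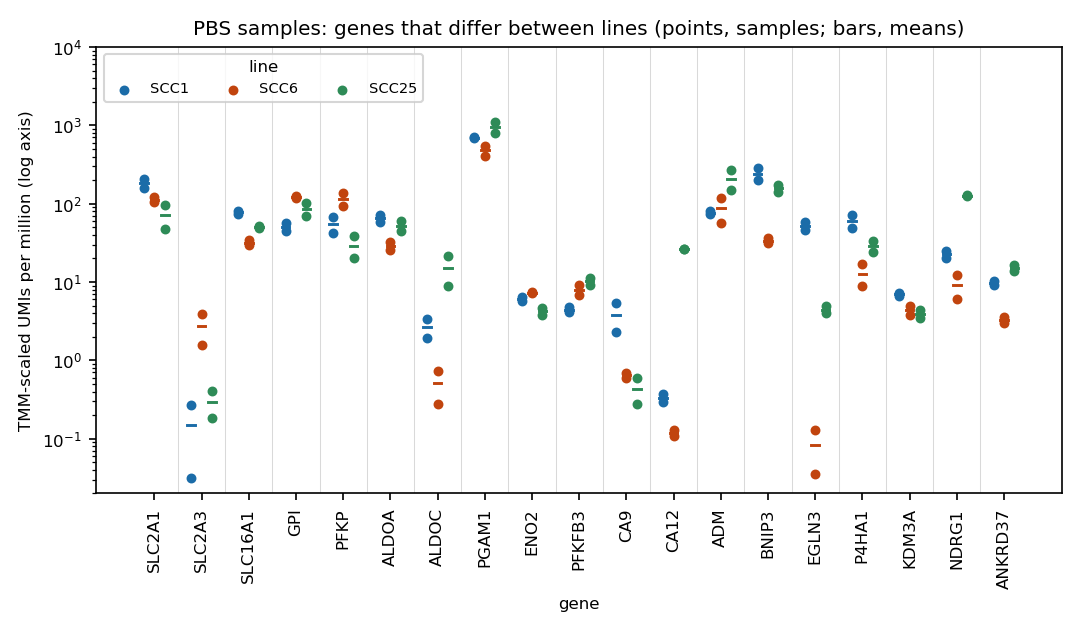
Levels in the PBS samples of the 19 genes called between any 2 lines, in CPM on a log axis, with 2 samples (points) and their mean (bar) for each line. By mean, SCC6 is the lowest line for EGLN3, BNIP3, P4HA1, NDRG1, ANKRD37, CA12, ALDOA, ALDOC, SLC16A1 and PGAM1. It is the highest for SLC2A3, GPI, PFKP and ENO2.

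The dioxygenases include EGLN3, the prolyl hydroxylase PHD3 that is itself induced by HIF, P4HA1 and P4HA2, which hydroxylate proline in collagen, and the histone demethylase KDM3A. EGLN3 was at 57.8 and 45.6 CPM in the SCC1 PBS samples, 4.01 and 4.89 in SCC25 and 0.0358 and 0.131 in SCC6. The SCC6 value rested on 3 and 12 UMIs, against 4133 and 4350 in SCC1. The ratio of SCC1 to SCC6 was 595 (exact conditional 95% interval 360.5 to 1063, counting error only). In SCC6 an EGLN3 UMI was found in 0.0377 and 0.0821% of cells after thinning to 15000 UMIs a cell. This was below the 0.0914% that PTPRC reached in SCC25 PBS replicate 1, although thinned SCC6 cells had no PTPRC or CD3E UMI. The ratio and the differences from SCC6 are read as lower bounds only. The ranges of the 3 lines did not overlap, and each pair of lines differed, with log2 differences of −9.23 ± 0.75 (SE; FDR = 1.13e-05) for SCC6 minus SCC1, −3.54 ± 0.54 (FDR = 0.000655) for SCC25 minus SCC1 and 5.69 ± 0.69 (FDR = 0.000153) for SCC25 minus SCC6. P4HA1 was at 72.3 and 49 CPM in SCC1, 33 and 24.5 in SCC25 and 16.8 and 8.8 in SCC6. SCC6 was below SCC1 by a log2 difference of −2.25 ± 0.51 (FDR = 0.00548), while the other neighbours in this order did not pass the test. KDM3A was higher in SCC1, at 6.99 ± 0.449 CPM (SD, n = 2), than in SCC6 at 4.42 ± 0.836 (FDR = 0.035) or SCC25 at 3.94 ± 0.601 (FDR = 0.0129). P4HA2 passed no comparison, with PBS means from 16.6 ± 7.06 CPM in SCC6 to 35.1 ± 10.9 in SCC25.

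BNIP3, a receptor that directs mitochondria to autophagy, was at 286 and 199 CPM in SCC1, 175 and 139.7 in SCC25 and 36.4 and 31.1 in SCC6. SCC6 was lower than SCC1 (log2 difference −2.84 ± 0.45, FDR = 0.000684) and than SCC25, which exceeded it by 2.22 ± 0.44 (FDR = 0.00267). SCC25 against SCC1 did not pass the test (FDR = 0.263). Its paralog BNIP3L, which serves the same process, held nearly the same level in all lines, between 52.7 ± 3.92 CPM in SCC6 and 58.1 ± 1.16 in SCC1, so that BNIP3 made up 69.1% to 83.3% of the summed BNIP3 and BNIP3L UMIs in the PBS samples of SCC1 and SCC25, and 39.7 and 38.4% in those of SCC6. ANKRD37, a small ankyrin-repeat protein induced by HIF, followed the order SCC25, SCC1, SCC6 with 15 ± 1.93, 9.66 ± 0.702 and 3.3 ± 0.461 CPM. SCC6 was below both other lines (FDR = 0.000746 and 0.000109), while SCC25 against SCC1 did not pass without the block (FDR = 0.0567) and did with it (0.022). NDRG1, a stress-induced gene linked to differentiation, was at 127 ± 4.2 CPM in SCC25, 22.6 ± 2.92 in SCC1 and 9.23 ± 4.56 in SCC6, and each pair of lines differed (FDR from 0.000113 to 0.0258). DDIT4, an inhibitor of mTORC1 induced by hypoxia and other stresses, passed no comparison. Its duplicates in SCC6 stood at 659.9 and 175 CPM.

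Carbonic anhydrases IX and XII hydrate carbon dioxide at the cell surface. CA12 was highest in SCC25 and CA9 in SCC1. CA12 was at 26.5 and 26.3 CPM in SCC25, 0.293 and 0.377 in SCC1 and 0.107 and 0.131 in SCC6. SCC25 exceeded SCC1 by a log2 difference of 6.28 ± 0.34 (FDR = 2.10e-06) and SCC6 by 7.77 ± 0.37 (FDR = 6.79e-07). CA9 was at 2.28 and 5.37 CPM in SCC1, above 0.597 and 0.686 in SCC6 and 0.274 and 0.593 in SCC25. SCC1 differed from both (FDR = 0.00704 and 0.00291), and SCC6 against SCC25 did not pass the test (FDR = 0.504). CA12 accordingly made up 99 and 97.8% of the UMIs of both genes in SCC25 and 11.4 and 6.56% in SCC1. Of the secreted products, ADM, the vasodilator adrenomedullin, was higher in SCC25 at 208 ± 81.1 CPM than in SCC1 at 77.2 ± 4.68 (FDR = 0.00878) and SCC6 at 87.3 ± 44.2 (FDR = 0.0162). VEGFA, the endothelial growth factor, passed no comparison, and its duplicates in SCC6 stood at 60.3 and 13.1 CPM.

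Among the transporters, SLC2A1 and SLC2A3 encode the glucose transporters GLUT1 and GLUT3, and SLC16A1 and SLC16A3 the lactate carriers MCT1 and MCT4. SLC2A1 was at 159 and 208 CPM in SCC1 and 122 and 104 in SCC6, with 47.5 and 97.4 in SCC25. Only SCC25 against SCC1 was separated (−1.34 ± 0.36, FDR = 0.0128). SLC2A3 was rare but line-dependent, at 1.59 and 3.91 CPM in SCC6, 0.411 and 0.185 in SCC25 and 0.266 and 0.0314 in SCC1, the last from 19 and 3 UMIs. The ratio of SCC6 to SCC1 was 21.3 (exact conditional 95% interval 13.9 to 34.2), and SCC6 exceeded both lines (FDR = 0.0072 and 0.0179). SLC16A1 fell in the order SCC1, SCC25, SCC6, at 77.7 ± 3.96, 50.5 ± 2.9 and 31.9 ± 3.51 CPM. SCC6 was below SCC1 (FDR = 0.00201) and SCC25 (FDR = 0.0475). SLC16A3 passed no comparison.

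Of the 17 glycolytic enzymes, 3, 2 and 5 were called in the comparisons of SCC6 with SCC1, SCC25 with SCC1 and SCC25 with SCC6, beside 40.2%, 40.8% and 40.9% of all genes. With the block, 9, 6 and 13 were called in the same order, beside 53.8%, 54.7% and 54.4%. The largest difference was that of ALDOC, the brain-type aldolase, at 8.83 and 21.2 CPM in SCC25, 1.93 and 3.33 in SCC1 and 0.274 and 0.74 in SCC6. SCC25 exceeded SCC6 by 4.88 ± 0.55 (FDR = 9.49e-05) and SCC1 by 2.51 ± 0.48 (FDR = 0.00233) on the log2 scale. ALDOA, the widespread aldolase, was lower in SCC6, at 29.2 ± 4.59 CPM, than in SCC1 at 65.2 ± 8.6 (FDR = 0.00575) or SCC25 at 52.2 ± 10.8 (FDR = 0.0268). GPI, which turns glucose 6-phosphate into fructose 6-phosphate, went the other way and was higher in SCC6, at 122 ± 5.02 CPM, and in SCC25, at 84.8 ± 22.5, than in SCC1, at 50.3 ± 8.37 (FDR = 0.0026 and 0.0338). PFKP, the platelet-type phosphofructokinase, was higher in SCC6 (116 ± 30.7 CPM) than in SCC25 (29.1 ± 12.9 CPM, FDR = 0.00598). PGAM1, the phosphoglycerate mutase, was lower in SCC6 (478 ± 95.2 CPM) than in SCC25 (955 ± 210.2 CPM, FDR = 0.0105), and ENO2, the neuronal enolase, higher (7.32 ± 0.0781 against 4.22 ± 0.553 CPM, FDR = 0.0466). PFKFB3, which makes the activator of phosphofructokinase, was lower in SCC1, at 4.44 ± 0.466 CPM, than in SCC6 at 7.93 ± 1.64 (FDR = 0.0121) and SCC25 at 10.2 ± 1.46 (FDR = 0.00187). HK1, HK2, PFKL, PFKM, TPI1, GAPDH, PGK1, ENO1, PKM, LDHA, LDHB, PDK1 and PFKFB4 passed no comparison between lines without the block.

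Among the genes called between untreated lines, SCC6 had the lowest mean for EGLN3, BNIP3, P4HA1, ANKRD37, NDRG1, CA12, ALDOA, ALDOC, SLC16A1 and PGAM1. It had the highest mean for SLC2A3, GPI, PFKP and ENO2. The mRNA of HIF1A, the oxygen-regulated HIF subunit, was also highest in SCC6. It was at 149 and 109 CPM in SCC6, 96.9 and 84.6 in SCC25 and 51.4 and 49.4 in SCC1, with SCC6 above SCC1 by 1.35 ± 0.22 on the log2 scale (FDR = 0.000843) and SCC25 above SCC1 by 0.85 ± 0.22 (FDR = 0.0109). HIF activity is set mainly at the protein, which was not measured. Of the 25 other hypoxia targets listed beside the 37 genes, 6 were lower in SCC6 than in SCC1, beside 18.6% of all genes, and 3 higher, beside 21.5%. PLOD2, a collagen lysyl hydroxylase, was at 12.2 ± 0.865 CPM in SCC6 and 73.5 ± 3.17 in SCC1 (FDR = 0.000122), whereas LOX, lysyl oxidase, was at 6.46 ± 2.26 in SCC6 and 0.248 ± 0.153 in SCC1 (FDR = 0.000226).

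The 2 replicates of a group differed in a way that repeated across lines and treatments. Replicate 2 had more of 10 of the 17 glycolytic enzymes, and replicate 1 more HK2, VEGFA, P4HA1, NDRG1 and BNIP3. When the replicate number was tested as a term beside the 6 group means, a comparison added after the data were seen, 15 of the 37 genes (40.5%) were called, beside 26.6% of all genes. Of these, 10 were higher in replicate 2 (background 13.8%) and 5 lower (background 12.8%). The median difference was 0.53 (log2) over the 17 glycolytic enzymes and −0.02 over all genes.

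**Figure D2:**
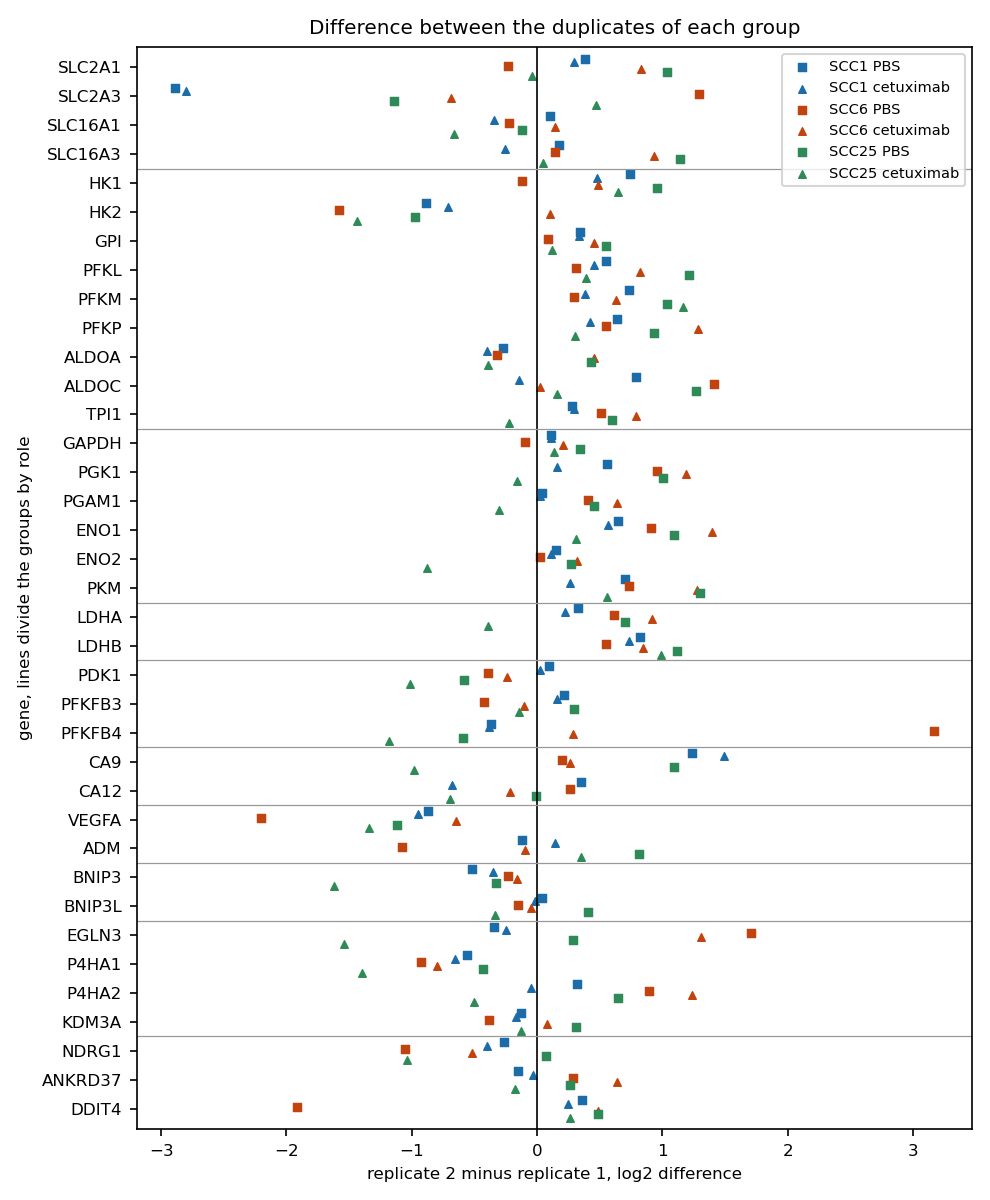
Difference between replicate 2 and replicate 1 of each of the 6 groups for the 37 genes, on the log2 scale of TMM-scaled counts with 0.5 added (colours, lines; squares, PBS; triangles, cetuximab). GPI, PFKL, PFKM, PFKP, ENO1, PKM and LDHB lie to the right of 0 in 6 of 6 groups, and VEGFA, BNIP3 and P4HA1 to the left in 6 of 6.

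LDHB, the lactate dehydrogenase subunit that favours pyruvate, was at 448 and 789.8 CPM in the 2 SCC1 PBS samples, and 352 and 585 in the SCC1 cetuximab samples. In SCC6 it was at 828 and 1216 CPM with PBS and 394 and 709 with cetuximab, and in SCC25 at 468 and 1015 with PBS and 394 and 783 with cetuximab, replicate 1 first. Replicate 2 was higher in all 6 groups, by 0.55 to 1.12 on the log2 scale, with a fitted difference of 0.84 ± 0.09 (FDR = 0.000391). The enolase ENO1 (0.82 ± 0.13, FDR = 0.00196) and the pyruvate kinase PKM (0.81 ± 0.14, FDR = 0.00247) showed differences of like size. The 3 phosphofructokinase genes PFKM (0.71 ± 0.12), PFKP (0.69 ± 0.13) and PFKL (0.62 ± 0.12) were also higher in replicate 2 (FDR from 0.00254 to 0.00408), as were HK1, GPI, PGK1 and TPI1 (log2 differences from 0.31 to 0.62, FDR from 0.0112 to 0.0458). GAPDH, which gave the most UMIs of the 37 genes, was not called (FDR = 0.283). In all, 11 of the 17 enzymes were called, HK2 as the one that was lower in replicate 2.

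VEGFA was at 18 and 9.81 CPM in SCC1 with PBS, and 13.9 and 7.18 with cetuximab, in the order replicate 1, replicate 2. In SCC6 it was at 60.3 and 13.1 with PBS and 11 and 7.02 with cetuximab, and in SCC25 at 30.02 and 13.8 with PBS and 33.2 and 13.1 with cetuximab. Replicate 1 was higher in all 6 groups, and the fitted difference of replicate 2 minus replicate 1 was −1.19 ± 0.18 (FDR = 0.0012). P4HA1 (−0.79 ± 0.12, FDR = 0.00136) and BNIP3 (−0.53 ± 0.17, FDR = 0.0448) were also higher in replicate 1 of every group. NDRG1 (−0.53 ± 0.15, FDR = 0.0223) was so in 5 of 6 groups, and so was HK2, the hexokinase induced by HIF (−0.92 ± 0.19, FDR = 0.00637). In all, 7 of the 37 genes were higher in replicate 2 in 6 of 6 groups, beside 14% of all genes, and 3 were higher in replicate 1 in 6 of 6, beside 14.6%. The proliferation genes moved with the replicate number too, as 6 of 10 were higher in replicate 2 and 0 lower, and replicate 2 had the larger UMI total in every group. Their part in the differences of the 37 genes was not tested. The labels do not say what a replicate number stands for, but the duplicates of cetuximab and PBS deviated together within each line.

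Within SCC6, cetuximab samples had less CA9 than PBS samples, and under the replicate block less of several glycolytic enzymes and more SLC2A3. Of the 37 genes, 1 was called, CA9, beside 3.81% of all genes. With the replicate number as a block, 14 were called (37.8%), CA9 among them, beside 20.1% of all genes. Of these, 12 were lower with cetuximab (background 10.1%) and 2 higher (background 9.94%). The median change was −0.38 (log2) over the 37 genes and 0.00 over all genes.

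CA9 was at 0.597 and 0.686 CPM with PBS and 0.0258 and 0.0332 with cetuximab, from 50 and 63 UMIs with PBS and 2 and 3 with cetuximab. The groups did not overlap, the fitted change was −4.37 ± 0.84 (FDR = 0.0231), and the ratio of PBS to cetuximab from the UMIs was 21.6 (exact conditional 95% interval 9.00 to 67.9, counting error only). The call was lost without PBS replicate 1 (FDR = 0.125) and without cetuximab replicate 1 (0.187) or 2 (0.0935), while the change stayed between −4.21 and −4.57. CA12 was at 0.107 and 0.131 CPM with PBS and 0.0258 and 0.0221 with cetuximab, from 9 and 12 UMIs with PBS and 2 and 2 with cetuximab. Its ratio was 5.02 (interval 1.69 to 20.1) and it missed the threshold (FDR = 0.0539, with the block 0.0466). With cetuximab, thinned SCC6 cells had a CA9 UMI in 0.0386 and 0% and a CA12 UMI in 0 and 0.061% of cells. This was no more than the 0.0914% that PTPRC reached in SCC25 PBS replicate 1, although thinned SCC6 cells had no PTPRC or CD3E UMI. Both ratios thus rest on treated values close to those of genes that should be absent. The 0 of 1639 cells for CA9 allows a share of up to 0.183%, and the 0 of 2592 cells for CA12 up to 0.116%.

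SLC2A3 was at 1.59 and 3.91 CPM with PBS and 34.1 and 21.2 with cetuximab. Both treated samples were above both controls, with a fitted change of 3.33 ± 0.85 and FDR = 0.0602, or 0.00297 with the block. PFKFB4, the testis-type relative of PFKFB3 that is induced by hypoxia, was at 0.119 and 1.12 CPM with PBS and 2.59 and 3.15 with cetuximab (FDR = 0.129, with the block 0.0147). EGLN3 was at 0.0358 and 0.131 CPM with PBS and 0.219 and 0.553 with cetuximab. Its ratio of cetuximab to PBS was 4.67 (interval 2.64 to 8.80), with the PBS level close to that of genes that should be absent. It was not called by edgeR without or with the block (FDR = 0.129 and 0.062), but was called by DESeq2 (adjusted p = 0.0165) and without the low-count filter (FDR = 0.0139). DDIT4 was at 659.9 and 175 CPM with PBS and 91.6 and 128 with cetuximab (FDR = 0.0595, with the block 0.0415). VEGFA, with values already given, was not called without the block (FDR = 0.155) and called with it (0.0094). For both, PBS replicate 1 stood far above the other 3 SCC6 samples. Without the low-count filter 7 of the 37 genes passed in SCC6, beside 1233 of all 25899 genes tested. With DESeq2 6 did, beside 1660 of 17897. The count also rose without PBS replicate 2, but no count over all genes is given there.

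All 17 glycolytic enzymes had a negative change in SCC6, between −1.34 and −0.05, with a median of −0.46. Scaling by total UMIs alone moved the median of all genes in this comparison by 0.23, and 15 of the 17 were then still negative. With the block 16 were, as ALDOC stood at 0.01. All 17 lay below the median of all genes under TMM, DESeq2 size factors and total UMIs without the block. None was called without the block. With the block 6 were, namely HK1 (−0.74 ± 0.17, FDR = 0.0221), GPI (−0.64 ± 0.15, 0.0222), PFKM (−0.81 ± 0.15, 0.00893), GAPDH (−0.41 ± 0.10, 0.0273), ENO1 (−0.81 ± 0.19, 0.0202) and LDHB (−0.93 ± 0.11, 0.00228). GAPDH was at 6147 and 5757 CPM with PBS and 4165 and 4801 with cetuximab, so that the groups did not overlap. PDK1, the kinase that keeps pyruvate out of the mitochondrion, was at 5.87 and 4.48 CPM with PBS and 2.92 and 2.48 with cetuximab (FDR = 0.155, with the block 0.00921). NDRG1 was the last of the 14 (block FDR = 0.0364). Beside these changes, the 10 proliferation genes were all negative in SCC6, 2 of them called with the block, beside 10.1% of all genes. Of the 5 fibroblast markers, 2 were called higher without the block (COL1A1 and PDGFRB), beside 2.51% of all genes, and 3 with it (LUM too), beside 9.94%. The 1 leukocyte marker tested, CD68, was called lower without the block (FDR = 0.0202), beside 1.3% of all genes, and with it (0.00645). The 5 fibroblast markers together were at 1.13 and 3.12 CPM in SCC6 with PBS and 24.5 and 21.0 with cetuximab, CD68 was at 30.5 and 13.2 with PBS and 3.3 and 4.14 with cetuximab, and PTPRC and CD3E were at or near 0. Their part in the changes was not tested.

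**Figure D3:**
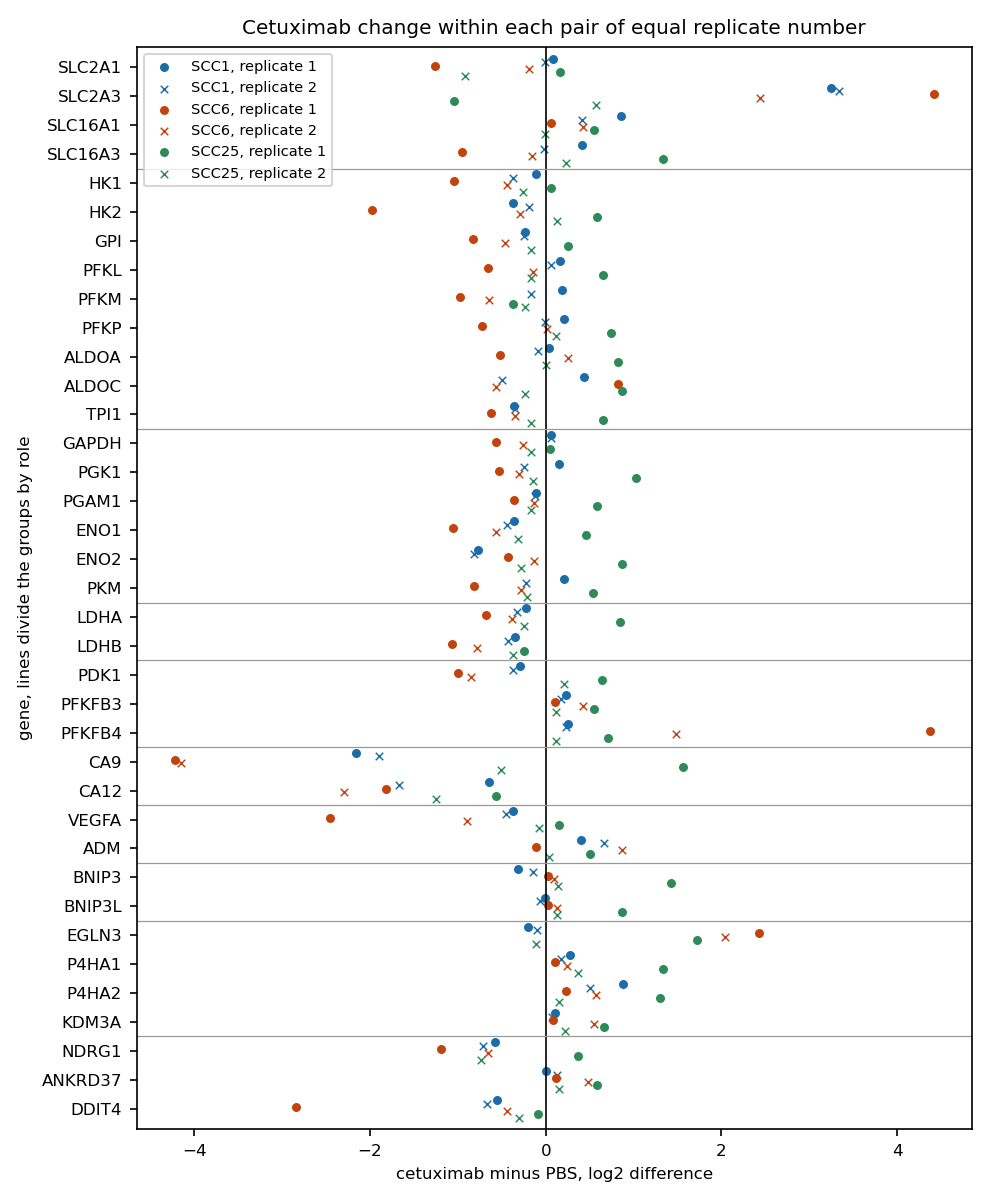
Change with cetuximab within each of the 6 pairs of equal replicate number for the 37 genes, on the log2 scale of TMM-scaled counts with 0.5 added (colours, lines; circles, replicate 1; crosses, replicate 2). CA12, LDHB and DDIT4 lie to the left of 0 in 6 of 6 pairs, and the SCC25 pair of replicate 1 lies to the right of 0 for 15 of the 17 glycolytic enzymes.

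Within SCC1, CA9, SLC2A3 and CA12 had the smallest unadjusted p of the 37 genes in the edgeR fit without the block. None of the 37 was called by edgeR without the block, beside 0.0168% of all genes, although 5 had an unadjusted p under 0.05 (8.77% of all genes did), and DESeq2 called none. With the block, SLC2A3 and CA9 were called, 2 of 37, beside 4.45% of all genes. CA9 was at 2.28 and 5.37 CPM with PBS and 0.506 and 1.44 with cetuximab, a change of −1.97 ± 0.59 (FDR = 0.338, with the block 0.0335). The groups did not overlap. SLC2A3 was at 0.266 and 0.0314 CPM with PBS and 2.57 and 0.365 with cetuximab, from 19 and 3 UMIs with PBS and 168 and 32 with cetuximab, with a ratio of 9.93 (exact conditional 95% interval 6.38 to 16.2) and FDR = 0.34, or 0.0335 with the block. Replicate 1 was the higher sample of both treatments. CA12 was at 0.293 and 0.377 CPM with PBS and 0.184 and 0.114 with cetuximab (FDR = 0.345, with the block 0.124). ENO2 was at 5.72 and 6.36 CPM with PBS and 3.35 and 3.62 with cetuximab (FDR = 0.445). SLC16A1 was higher in the treated samples, at 136 and 107 CPM against 74.9 and 80.5 with PBS (FDR = 0.459), and so was P4HA2, at 41.6 and 40.1 against 22.7 and 28.3 (FDR = 0.744). For CA12, ENO2, SLC16A1 and P4HA2 the groups did not overlap either, but no fit called them. NDRG1, DDIT4 and ADM, among others, were also without overlap. The share of all genes whose groups did not overlap was not calculated in any line, so such separation has no background. The median change over the 37 genes was −0.08, beside 0.00 over all genes.

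Within SCC25, no gene of the 37 was called by edgeR without or with the block, beside 0% and 0.978% of all genes. At an unadjusted p under 0.05 there were 3 (5.82% of all genes), namely CA12, BNIP3L and BNIP3, and DESeq2 and the fit without the low-count filter called none. CA12 was at 26.5 and 26.3 CPM with PBS and 17.9 and 11.1 with cetuximab (change −0.86 ± 0.26, FDR = 0.611), with no overlap. In cetuximab replicate 1, several hypoxia-induced genes stood above the other 3 SCC25 samples. BNIP3 was at 175 and 139.7 CPM with PBS and 473 and 154 with cetuximab. P4HA1 was at 83 and 31.6 with cetuximab, EGLN3 at 13.2 and 4.54 and BNIP3L at 86.4 and 68.4, the last against 47.2 and 62.5 with PBS. KDM3A, at 3.51 and 4.36 with PBS and 5.56 and 5.09 with cetuximab, did not overlap (FDR = 0.899). The fitted change of BNIP3 was 0.99 ± 0.42 (FDR = 0.82) with all samples, and −0.023 without cetuximab replicate 1. In the pair of replicate 1, 15 of the 17 glycolytic enzymes and 11 of the 13 hypoxia-induced genes were higher with cetuximab, with medians of 0.59 and 0.66 on the log2 scale. In the pair of replicate 2 this held for 3 of 17 and 7 of 13, with medians of −0.17 and 0.04. Over all genes, the median was −0.01 in both pairs.

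Across the 3 lines, CA12 was the gene called, and its fitted change was negative in each line. No line passed on its own without the block (FDR = 0.0539 in SCC6, 0.345 in SCC1 and 0.611 in SCC25). Its UMIs were few in SCC6 (9 and 12 with PBS, 2 and 2 with cetuximab) and in SCC1 (21 and 36, then 12 and 10). Across lines CA12 had a change of −1.14 ± 0.22 (FDR = 0.0197), as 1 of 37 genes (2.70%), beside 3.67% of all genes. It fell in 6 of 6 pairs, by −2.30 to −0.56. The call was lost without SCC1 PBS replicate 2 (FDR = 0.057). With the replicate block, 4 of 37 genes were called, beside 11.6% of all genes. These were CA12 (0.0177), SLC2A3 (2.39 ± 0.66, FDR = 0.0489), P4HA2 (0.61 ± 0.15, 0.0344) and LDHB (−0.54 ± 0.11, 0.0227). Without the block, SLC2A3 had FDR = 0.0911, SLC16A1 0.119 with a change of 0.40 ± 0.14, P4HA2 0.137, DDIT4 0.148 with −0.91 ± 0.34, and CA9 0.175 with −1.60 ± 0.64.

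P4HA2 was higher with cetuximab in all pairs, at 11.6 and 21.6 CPM with PBS and 13.6 and 32.2 with cetuximab in SCC6. In SCC25 it was at 27.4 and 42.8 with PBS and 67.5 and 47.6 with cetuximab, beside the SCC1 values already given. LDHB was lower in all pairs, by −1.07 to −0.25. In all, PFKFB3, PFKFB4, P4HA1, P4HA2, KDM3A and ANKRD37 were higher with cetuximab in 6 of 6 pairs, beside 11.4% of all genes, and LDHB, CA12 and DDIT4 lower in 6 of 6, beside 10.6%. With scaling by total UMIs, SLC16A1 and ADM joined the higher group and the lower group was the same 3 genes. The counts of 6 and 3 of 37 are 16.2% and 8.11%. The median change over the 37 genes was −0.05, beside 0.01 over all genes.

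In the test for unequal effects of cetuximab in the 3 lines, no gene of the 37 passed, beside 0% of all genes in edgeR without the block. Unadjusted, 3 had p under 0.05 (7.36% of all genes), namely CA9 (FDR = 0.366), SLC2A3 (FDR = 0.63) and PDK1 (FDR = 0.637). They were followed by ENO2, EGLN3 and DDIT4 (FDR from 0.678 to 0.716). DESeq2 called CA9 (adjusted p = 0.00516), and the fit without the low-count filter called CA9 (0.00481) and SLC2A3 (0.036). The changes of CA9 were −4.37 ± 0.84 in SCC6, −1.97 ± 0.59 in SCC1 and 0.49 ± 0.61 in SCC25.

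The share that 1 gene takes of its paralogs was compared within lines, as it does not depend on scaling. None of 11 shares passed between cetuximab and PBS by an exact two-sided permutation test within lines (smallest possible p = 0.00926), with p from 0.0833 to 0.963 and Benjamini-Hochberg adjusted p over the 11 shares of 0.346 or more. Even at that smallest p, a share on its own would miss 0.05 after adjustment over 11 shares. The absence of calls therefore says little. SLC2A3 made up 1.28 and 3.63% of SLC2A1 and SLC2A3 UMIs in SCC6 with PBS and 40.1 and 18.9% with cetuximab, but at most 1.51% in every SCC1 and SCC25 sample, for a mean difference over lines of 9.25 points (p = 0.0833 by the exact test). LDHA made up 74.8 and 67.8% of LDHA and LDHB in SCC1 with PBS and 76.4 and 69.4% with cetuximab. In SCC6 it made up 49.8 and 50.9% with PBS and 56.5 and 57.7% with cetuximab, and in SCC25 70.5 and 64.2% and then 83.6 and 66.3%. Cetuximab samples had the larger share in 6 of 6 pairs, by a mean of 5.32 points, with exact p = 0.111 within lines and 0.0312 by an exact sign-flip test over the pairs, the smallest that test can give, and 0.172 after adjustment. The share of PFKFB4 in PFKFB3 and PFKFB4 was larger with cetuximab in 6 of 6 pairs too, by a mean of 5.70 points, with the same sign-flip p. PFKP, HK2, ALDOC, ENO2, SLC16A3, CA12, BNIP3 and P4HA2 had mean differences from −4.09 to 11.7 points, with exact p of 0.130 or more. HK2 took 26.5 and 10.4% of HK1 and HK2 UMIs in SCC1 with PBS and 10.9 and 3.11% in SCC25, in the order replicate 1, replicate 2, and its mean difference between treatments was −1.32 points.

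In single cells, the most abundant enzymes were found in nearly all cells, and other enzymes and the hypoxia-induced genes in a part of them. Cells were thinned to 15000 UMIs each, which left out 851 cells (0.847% to 9.18% per sample). GAPDH, PKM, TPI1, PGAM1 and LDHA had a UMI in at least 97.0% of thinned cells of every sample. The enzymes HK2 and ENO2 had one in 3.24% to 17.3% and 5.12% to 9.06%, and the hypoxia-induced DDIT4 in 58.8% to 94.5%. PTPRC and CD3E, which these lines should lack, had a UMI in at most 0.0914%, the PTPRC value of SCC25 PBS replicate 1. Thinned SCC6 cells had no UMI of either. BNIP3 was found in 88.8 and 80.2% of cells in SCC1 with PBS, 75.3 and 59.3% in SCC25 and 31.3 and 30.9% in SCC6 (means without thinning 94.9, 83.7 and 54.2%). EGLN3 was found in 54.8 and 45.5%, 5.71 and 6.07% and 0.0377 and 0.0821% in the same order (means without thinning 78.3, 11.2 and 0.296%). The thinned SCC6 PBS values of EGLN3 lay below the 0.0914% of PTPRC, as did those of CA9 and CA12 in SCC6 with cetuximab. CA12 was found in 30.4 and 27.6% of SCC25 cells with PBS and 21.8 and 13.2% with cetuximab (without thinning 51.7 and 53.3% and 44.2 and 33.9%). SLC2A3 was found in 1.96 and 2.91% of SCC6 cells with PBS and 22.2 and 15.3% with cetuximab (without thinning 3.52 and 4.38% and 27.5 and 26.3%). CA9 was found in 3.13 and 7.07% of SCC1 cells with PBS and 0.32 and 2.97% with cetuximab.

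**Figure D4:**
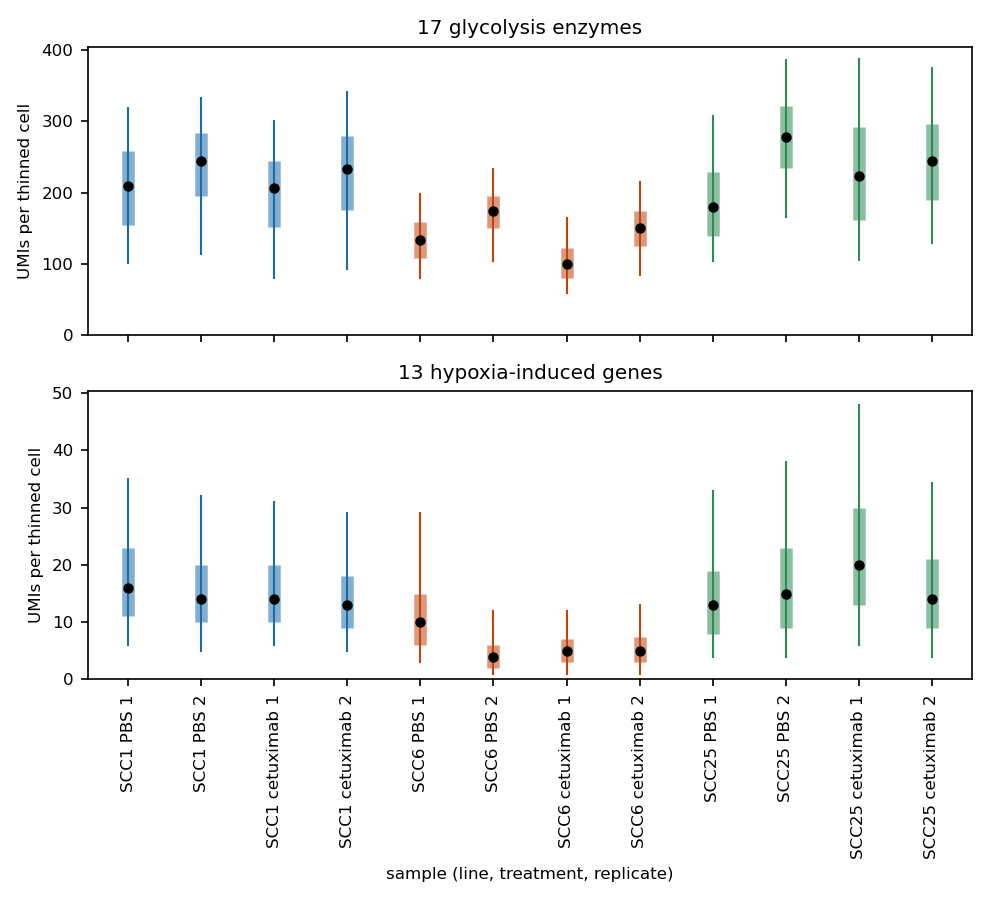
UMIs of the 17 glycolytic enzymes (top) and the 13 hypoxia-induced genes (bottom) per cell thinned to 15000 UMIs in the 12 samples. Points are medians over cells, thick bars the 25th to 75th and thin lines the 5th to 95th percentile. SCC6 has the lowest medians in both panels, and SCC25 cetuximab replicate 1 the highest for the hypoxia-induced genes, at 20.

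The 13 hypoxia-induced genes gave a median of 16 and 14 UMIs per thinned cell in the SCC1 PBS samples, 10 and 4 in SCC6 and 13 and 15 in SCC25, and 20 and 14 in SCC25 with cetuximab. Cells of 1 sample ranged widely, from 6 and 4 UMIs at the 5th percentile of the SCC25 cetuximab samples to 48 and 34.4 at the 95th. For BNIP3 alone, the median cell of SCC25 cetuximab replicate 1 had 5 UMIs and that of replicate 2 had 1, so that the higher level of replicate 1 was spread over most of its cells. The 17 glycolytic enzymes gave medians from 100 to 278 UMIs. Across cells within a sample, the logs of both sums correlated weakly, with a median Pearson r over the 12 samples of 0.137 and a range of −0.0809 to 0.406, given as a description only. With PBS the values were 0.265 and 0.096 in SCC25, 0.235 and 0.197 in SCC1 and 0.0813 and −0.0653 in SCC6. The cells of a sample share a library, and both sums are parts of the same 15000 UMIs.

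Across lines, some of the other hypoxia targets rose with cetuximab and 0 of the 25 fell without the block. Among those that rose were PLOD2 (log2 change 0.90 ± 0.18, FDR = 0.0206) and TMEM45A (1.16 ± 0.26, 0.0335), and LOX followed (0.077). PLOD2 and P4HA2 both modify collagen. Of the 8 tested genes of the HIF machinery, the 7 of the pentose phosphate pathway and the 17 tested of the other glycolysis and pyruvate genes, 0 were called in either direction without the block. Of all genes only 3.67% were called, so these counts do not set the lists apart. The smallest FDR in these were 0.284 for HIF1AN, the asparaginyl hydroxylase that inhibits HIF, 0.135 for RPIA and 0.058 for BPGM. With the block, BPGM, the bisphosphoglycerate mutase (0.034), and TIGAR (0.0285) were called higher and FBP1 lower (0.0135), beside 6.03% and 5.55% of all genes. Of the proliferation genes, 0 of 10 were called without the block, beside 1.13% of all genes called lower, and 7 were lower with it, beside 5.55%, AURKA (−0.76 ± 0.20, FDR = 0.0596, with the block 0.0188) and MKI67 (−0.73 ± 0.19, 0.0608, 0.0347) among them. Of the squamous markers, 1 of 10 rose, KRT17 (1.25 ± 0.22, FDR = 0.0149), and of the fibroblast markers 1 of 5, COL1A2 (1.16 ± 0.24, 0.0246), beside 2.53% of all genes called higher. With the block these counts were 1 of 10 and 2 of 5, beside 6.03%. The summed fibroblast markers were between 1.13 and 75.4 CPM and the endothelial ones at 0.0326 to 0.660 CPM. Without the block, 0 of the 1 leukocyte and 2 endothelial markers tested were called, beside 3.67% of all genes.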

How the data were processed

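Single cells of 12 samples were profiled with the 10x Genomics Chromium 3′ kit. The deposited files are UMI counts per gene and cell, which the authors made with Cell Ranger on GRCh38 (submitters' processing notes, no version given), in 3 matrices, 1 per line. Each cell was tied to its sample through the suffix of its barcode. The counts were summed per sample and symbol, with no further filter on cells and no doublet caller. Between 1 and 13 barcodes were shared by pairs of samples of different groups, and between 3 and 10 by samples of 1 group.

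For the summed counts, edgeR 4.0.16 and its quasi-likelihood test were used (R 4.3.3, TMM factors, filterByExpr, Benjamini-Hochberg FDR over the 17897 genes tested, threshold 0.05). The model held 6 group means or, across lines, line and treatment. This replaces a test over cells, since cells are not replicates. The fit was tested on simulated data. Changes are log2, and the SE given is the size of the change divided by the square root of the F statistic of its test. Within each line, the replicate deviations of cetuximab and PBS samples correlated at 0.377 (SCC1), 0.349 (SCC6) and 0.598 (SCC25) over 17897 genes, so the replicate numbers were taken to pair the samples, and values with the number as a block are given where they change a call. The block leaves 3 residual degrees of freedom within lines and 5 across lines, where the fits without it leave 6 and 8. Alternatives were DESeq2 1.42.0, its size factors, total UMIs, no filter on low counts, cells with over 20% mitochondrial UMIs or the 5% of cells with most UMIs left out, each line alone, and each sample left out. Intervals of ratios are exact conditional 95% intervals and cover counting error only.

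The genes and lists were chosen with earlier results of these data known. In each comparison every gene past the threshold was named, or the 6 of smallest p where fewer than 6 passed. Of the other lists up to 4 genes were named by their p across lines, and PLOD2, LOX and HIF1A between lines, FBP1 and those in the closing section were chosen after their values were seen. Some listed genes are not reported here.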

Additional observations from a re-analysis of the deposited data

How the results depend on the processing

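The replicate block changed the count of called genes among the 37 in SCC1, in SCC6, across lines and between lines. In SCC1 it gave 2 calls in place of 0, as did leaving out the filter on low counts. Over all genes the calls in SCC1 went from 3 to 797 with the block and 243 without the filter. In SCC6 the 1 call became 14 with the block, 7 without the filter and 6 with DESeq2. It became 2 with total UMIs, without cells of high mitochondrial share or with the line fitted alone, for which the counts over all genes are not given. Over all genes the calls in SCC6 went from 682 to 3589 with the block, 1233 without the filter and 1660 with DESeq2. Across lines the 1 call became 4 with the block, 3 with DESeq2 and 2 without the filter. Over all genes, 656 calls became 2073, 1771 and 1043 in the same order. For the difference of effects between lines, 0 became 2 without the filter and 1 with DESeq2. Over all genes, 0 became 248 and 287. Between lines the block gave 22, 17 and 24 calls in place of 14 (SCC6 minus SCC1), 10 (SCC25 minus SCC1) and 13 (SCC25 minus SCC6). The share of all genes called went from 40.2%, 40.8% and 40.9% to 53.8%, 54.7% and 54.4% in the same order. The cause of these differences was not tested. Leaving out 1 sample at a time gave 0 to 3 calls in SCC6, 0 to 1 across lines, 9 to 15 for SCC6 minus SCC1, 7 to 11 for SCC25 minus SCC1 and 8 to 15 for SCC25 minus SCC6, and 0 to 0 in SCC1, in SCC25 and for the difference of effects. In SCC6 the count was 0 without PBS replicate 1 or either cetuximab sample, 3 without PBS replicate 2, and 2 without either SCC1 or SCC25 cetuximab sample. It was 9 for SCC6 minus SCC1 without SCC1 PBS replicate 2 and 8 for SCC25 minus SCC6 without SCC25 PBS replicate 2. Counts over all genes are not given beside these leave-out counts, which thus have no background. The change of BNIP3 in SCC25 went to −0.023 without cetuximab replicate 1 and to 1.58 without cetuximab replicate 2. The calls by replicate number were 10 to 14 without 1 line, beside 15 with all, and the counts over all genes without 1 line are not given. None of the 11 paralog shares passed after adjustment under any alternative run, but a share on its own could not have passed in these tests. Total UMIs moved the median of all genes by −0.31 (SCC6 minus SCC1), −0.19 (SCC25 minus SCC1), 0.14 (SCC25 minus SCC6), 0.23 (SCC6) and 0.10 (across lines) on the log2 scale. Genes with few UMIs, CA9, CA12, EGLN3 and SLC2A3 among them, are limited by counting error. With 2 samples a group, a change that missed the threshold is not shown to be absent.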

Other observations

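Several genes next to these pathways differed widely between lines in the PBS samples. FBP1, the gluconeogenic phosphatase that works against phosphofructokinase, was at 18.7 and 101 CPM in SCC25, 0.0768 ± 0.00986 (SD, n = 2) in SCC1 and 0.0625 ± 0.00398 in SCC6, and SCC25 differed from both (FDR = 0.000124 and 0.000114). With cetuximab, SCC25 had 11.1 and 49 CPM. SLC16A7, which encodes the pyruvate and lactate carrier MCT2, was at 10.4 ± 5.02 CPM in SCC6, 2.06 ± 0.603 in SCC1 and 0.66 ± 0.177 in SCC25 (FDR = 0.000783 for SCC6 minus SCC1). LDHD, the mitochondrial D-lactate dehydrogenase, was at 2.15 ± 0.234 CPM in SCC1 and 0.0799 ± 0.00521 in SCC6 (FDR = 0.00171). HKDC1, a hexokinase relative, was at 2.82 ± 0.168 CPM in SCC25, 1.02 ± 0.191 in SCC6 and 0.41 ± 0.0271 in SCC1. ANGPTL4, a secreted lipase inhibitor induced by hypoxia, was at 0.823 and 4.7 CPM in SCC6 and 0.0664 ± 0.00496 in SCC1 (FDR = 0.00424), so that ANGPTL4 and LOX were higher in SCC6 and EGLN3, BNIP3 and P4HA1 higher in SCC1.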
